A study of Mus musculus with 10 samples.

Results

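GABAergic amacrine cells that held RNA of both Cxcl14 and Tmem114 numbered 1453 of the 32523 cells measured (4.47%). Each cell was chosen by its own unique molecular identifiers (UMIs), each of which stands for 1 captured RNA molecule. A member had at least 2 UMIs of Cxcl14, at least 1 of Tmem114, at least 2 of Gad1 and Gad2 together, and none of the glycine transporter gene Slc6a9. The Gad and Slc6a9 conditions alone were met by 16415 cells, called Gad-gated here, and members made up 8.85% of them. The main comparison set was the 7651 Gad-gated cells of the same libraries in which no Cxcl14 UMI was found. Arap2, Chrna2 and Nefm had been proposed as further markers with results of the same data known, so their values are described with no test, as are those of the genes that chose the cells.

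All 10 libraries were made with 10x Chromium 3′ v2 chemistry from retinas of mice of the Chx10-cre-GFP strain at postnatal day 19. The sort kept cells without GFP, CD133 or CD73 that were positive for the viability dye Calcein Blue, and every library shares this strain, age and sort, which limits the results to cells that it passed. By their labels, batch 1 is a single library, batch 2 has 5 and batch 3 has 4. Whether each library was a different animal is not stated there, so the p-values below speak only of variation from library to library, part of which may be technical.

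Amacrine cells are interneurons of the inner retina, and most of them release GABA, which the enzymes encoded by Gad1 and Gad2 make, or glycine, which neurons take up through the transporter encoded by Slc6a9. Cxcl14 encodes a secreted chemokine, and Tmem114 a membrane protein related to the claudins. Arap2 encodes a protein that acts on small GTPases of the Arf and related families, Chrna2 the alpha-2 subunit of nicotinic acetylcholine receptors, which are cation channels, and Nefm the medium chain of neurofilaments, the intermediate filaments of axons.

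In the mouse assembly GRCm38, the GENCODE M21 annotation places Cxcl14 on chromosome 13 (56288643 to 56296551, minus strand) and Tmem114 on chromosome 16 (8409275 to 8425136, minus strand). Arap2 is on chromosome 5 (62602445 to 62766159, minus strand), and Chrna2 (66135039 to 66152948, plus strand) and Nefm (68082590 to 68124846, minus strand) are on chromosome 14. Maf, the gene with the largest change below, is on chromosome 8 (115682942 to 115707794, minus strand), and Crybb3 on chromosome 5 (113075839 to 113081584, minus strand). All 7 are protein coding. The RefSeq promoter table for GRCm38.p6 held 3 of the 5 marker genes. The 250 bases before the start of Cxcl14 (chr13:56296552-56296801, minus strand) and of Tmem114 (chr16:8425137-8425386, minus strand) are printed because these genes chose the cells. Those of Crybb3 (chr5:113081585-113081834, minus strand) are printed because it was found with Maf in the same cells. Capitals mark TGCTGA or its reverse complement TCAGCA, the core of the element that Maf proteins recognise.
Cxcl14: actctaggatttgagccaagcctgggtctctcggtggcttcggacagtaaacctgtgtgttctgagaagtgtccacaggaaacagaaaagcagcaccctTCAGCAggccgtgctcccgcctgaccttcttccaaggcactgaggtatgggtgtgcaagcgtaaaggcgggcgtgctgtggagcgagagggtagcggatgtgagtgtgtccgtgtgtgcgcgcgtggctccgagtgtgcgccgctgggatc
Tmem114: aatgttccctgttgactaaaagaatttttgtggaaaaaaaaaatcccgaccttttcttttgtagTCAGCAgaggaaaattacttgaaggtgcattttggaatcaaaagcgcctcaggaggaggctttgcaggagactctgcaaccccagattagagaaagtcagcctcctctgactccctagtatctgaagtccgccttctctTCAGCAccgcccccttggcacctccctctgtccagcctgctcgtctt
Crybb3: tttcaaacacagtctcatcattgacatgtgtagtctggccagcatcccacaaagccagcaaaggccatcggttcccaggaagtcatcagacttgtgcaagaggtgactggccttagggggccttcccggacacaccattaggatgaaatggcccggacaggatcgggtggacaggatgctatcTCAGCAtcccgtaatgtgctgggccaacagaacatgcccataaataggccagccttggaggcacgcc
The search covered both strands and was chosen after the Maf level had been seen. It found the letters once before Cxcl14, at 2 places before Tmem114, once before Crybb3 and nowhere in the window before Arap2. Over all 32851 promoters of the table, 16.1% held the letters in the same window and 1.66% held them at 2 or more places. The letters GCCNNNGGC, a site of AP-2 proteins whose reverse complement is the same, were in none of these 4 windows and in 13.7% of all promoters. A match describes letters only.

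The libraries held 950 to 4738 cells, where the labels state about 6000 recovered per channel, and 6302659 to 26028492 UMIs. The median depth was 7053 UMIs in members against 4136 in Gad-gated cells without Cxcl14, and 10.0% of members against 2.04% of those cells lay above the 95th percentile of UMIs in their library. Of 31586 distinct barcode sequences, 923 were found in more than 1 library, 97 members carried such a sequence, and 8 sequences were shared between members of different libraries. In CPM, the UMIs of a gene per 1000000 UMIs of the set within a library, members had the amacrine genes Slc32a1, the vesicular GABA and glycine transporter, at 668 ± 53.9 and Pax6 at 1234 ± 68.0 (SD, n = 10 libraries). Cells without Cxcl14 had them at 692 ± 55.0 and 952 ± 41.7 CPM. The sum of 11 amacrine markers ran from 10106 to 11506 CPM in members and from 11474 to 12647 CPM in cells without Cxcl14. In the first test below, 4 of the 11 were higher and 5 lower in members, beside 25.2% and 23.8% of all genes tested. The ganglion cell genes Rbpms and Slc17a6 were at 2.22 ± 2.68 and 1.80 ± 1.77 CPM, while the sum of 13 ganglion cell markers ran from 760 to 951 CPM in members and from 486 to 541 CPM in cells without Cxcl14. That gap lay mostly in Thy1, a surface protein of many neurons (627 ± 96.5 against 278 ± 25.5 CPM), and in the neurofilament gene Nefl (140 ± 22.0 against 62.5 ± 21.1 CPM). Summed markers of bipolar cells ran from 122 to 402 CPM in members and from 252 to 361 CPM in cells without Cxcl14, and those of Müller glia from 1337 to 1700 and from 1181 to 1589 CPM. The sum of 5 astrocyte markers ran from 8.10 to 30.9 CPM in members and from 4.01 to 14.8 CPM in cells without Cxcl14, with Pax2 at 6.87 ± 3.28 against 0.0670 ± 0.144 CPM and Gfap at 2.55 ± 2.28 against 0.805 ± 0.449 CPM. Of 5 microglial markers with a count, C1qa, C1qb and C1qc were at 0 in members, and the sum over the list ran from 0 to 9.85 CPM. The part of other cell classes in the results below was not tested. Depth was varied by thinning cells to equal depth and by leaving out cells of high depth.

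Of the genes of the gate, Cxcl14 was abundant in members and Tmem114 sparse. Members held a median of 15 Cxcl14 UMIs (range 2 to 71) but a median of 1 Tmem114 UMI (range 1 to 10), and 839 members (57.7%) were admitted on a single Tmem114 UMI. Of the 1813 Gad-gated cells with Tmem114, 80.1% were members, and of the 7081 with at least 2 Cxcl14 UMIs 20.5% were. The 44 members with exactly 2 Cxcl14 UMIs, just inside the limit, had Chrna2 at 31.7 CPM, Maf at 106 CPM and Tfap2b at 645 CPM, pooled over cells. The 55 cells just outside it, with 1 Cxcl14 UMI and a Tmem114 UMI, had Chrna2 at 12.8 CPM, Maf at 47.9 CPM and Tfap2b at 1767 CPM. Among the 4556 cells gated on Slc6a9 in place of Gad, 171 (3.75%) held at least 2 Cxcl14 UMIs and 2 (0.044%) also held Tmem114.

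Members were found in every library. Their number ran from 40 in library 1, through a median of 138.5, to 249 in library 6. As a share of Gad-gated cells they ran from 7.06% in library 5 (Wilson 95% interval 6.10 to 8.16%) to 11.0% in library 7 (9.46 to 12.7%), with a mean of 8.97% ± 1.20 (SD, n = 10). These intervals cover counting error only. The share was 8.40% ± 1.02 in the 5 libraries of batch 2 and 9.83% ± 1.13 in the 4 of batch 3, and the ranges overlapped. The difference of 1.44 percentage points did not pass an exact two-sided permutation test over libraries (p = 0.127), where the smallest p this design allows is 0.0159. With every cell thinned to 2000 UMIs before the gates, the shares were 3.75% ± 0.70 and 4.59% ± 0.29 (exact permutation p = 0.0635). Under a stricter gate of at least 4 Cxcl14 and 2 Tmem114 UMIs they were 3.18% ± 0.53 and 4.93% ± 0.31, ranges that did not overlap (exact permutation p = 0.0159). Depth moved with batch: the median UMIs of Gad-gated cells without Cxcl14 ran from 3106 to 3906 in batch 2 and from 5026 to 6612 in batch 3, while the medians of members overlapped (6175 to 8143 and 6817 to 9107). Cxcl14 in members moved with batch too, from 1793 to 2106 CPM in batch 2 and from 2573 to 2898 CPM in batch 3, with no overlap. The part of depth and of the Cxcl14 level in the batch difference under the stricter gate was not tested.

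**Figure D1:**
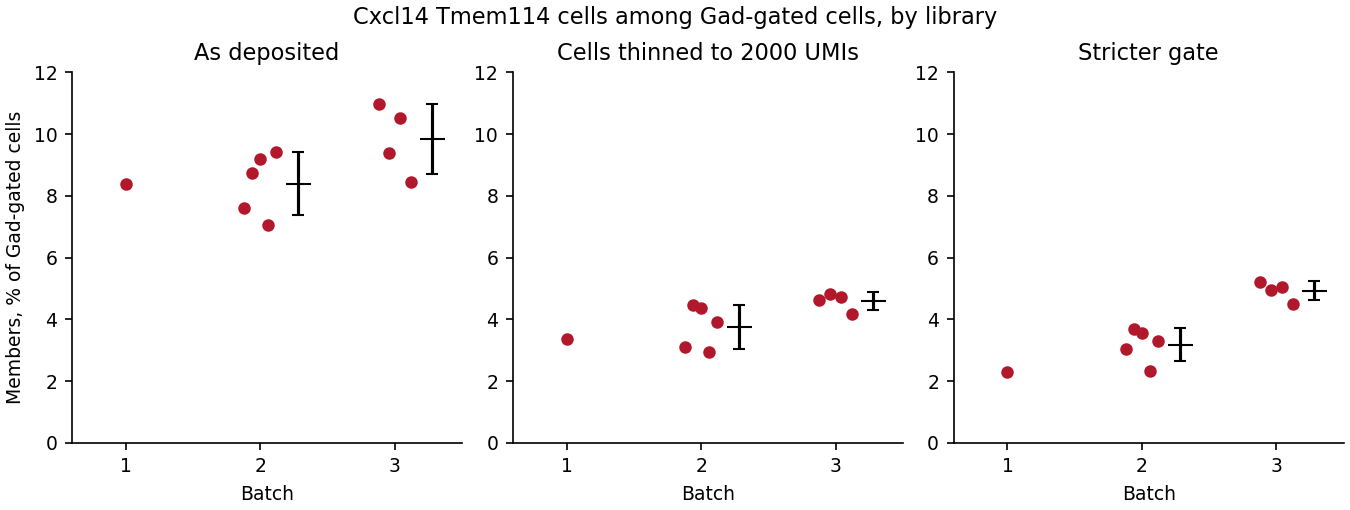
Members as a percentage of Gad-gated cells in each library (points), by batch, under the gate as given, with cells thinned to 2000 UMIs, and under the stricter gate; bars mark the mean ± SD of a batch. Under the stricter gate the 4 libraries of batch 3 (4.49 to 5.21%) lie above the 5 of batch 2 (2.34 to 3.68%), while under the gate as given the batches overlap.

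The 3 further markers were each higher in members than in Gad-gated cells without Cxcl14 in all 10 libraries, and for none of them did the 2 sets overlap. They had been proposed with results of these data known, which makes a lack of overlap likely. The share of all genes without overlap is not reported here. Chrna2 ran from 62.7 to 88.4 CPM in members (median 80.5) and from 0.534 to 1.90 CPM in the comparison cells (median 0.792). Arap2 ran from 58.6 to 86.0 CPM in members (median 70.4) and from 6.50 to 15.6 CPM in the comparison cells (median 9.48). Nefm, the closest of the 3, ran from 35.1 to 84.2 CPM in members (median 62.1) and from 11.4 to 30.1 CPM in the comparison cells (median 17.8). In single cells these genes were sparse. Chrna2 gave a UMI in 39.4% of members, in 0.471% of Gad-gated cells without Cxcl14 and in 5.36% of Slc6a9-gated cells, whose median depth was 3664 UMIs. Arap2 gave one in 35.0%, 4.16% and 2.68%, and Nefm in 27.1%, 8.33% and 10.8% of the same sets. Members also led at equal depth: at 2000 UMIs per cell the shares were 14.2%, 0.240% and 3.31% for Chrna2, 11.9%, 2.01% and 1.29% for Arap2, and 10.2%, 3.66% and 6.33% for Nefm. In Gad-gated cells with at least 2 Cxcl14 UMIs but no Tmem114, Nefm stood at 53.2 ± 13.2 CPM against 61.0 ± 18.9 CPM in members, and the libraries of these sets overlapped. Chrna2 stood there at 17.2 ± 4.80 and Arap2 at 20.8 ± 2.63 CPM, and neither overlapped with members.

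The members did not fall into a single cluster. All cells were clustered on 2975 variable genes without the gate and proposed marker genes, with values scaled within each library. Of 85 clusters, 47 held at least 1 member and 6 held at least 5% of them. The 3 leading clusters, numbers 9, 11 and 23, held 57.1% of members and the first 6 held 77.0%. Members were 63.1% of the Gad-gated cells of cluster 9, 59.1% of those of cluster 23 and 44.7% of those of cluster 11. The share was 27.5% in cluster 32, 22.4% in cluster 6 and 10.9% in cluster 1. Among the 6, clusters 6 and 32 were shallow, with median depths of 2330 and 1954 UMIs. Clusters are left without cell type names, and levels within them are described with no test.

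The 6 clusters were grouped by their Maf and Nefm levels, seen after clustering, into 3 sets. Differences in Maf and Nefm between the sets are therefore largely fixed by the grouping. All members hold Cxcl14 and Tmem114 by the gate, but the sets differed in the other markers. Clusters 9 and 32 held 395 members (27.2%), clusters 11, 23 and 6 held 628 (43.2%) and cluster 1 held 96 (6.61%). Nefm was 136 ± 48.9 CPM in members of clusters 9 and 32, 43.3 ± 20.4 CPM in those of 11, 23 and 6, and 14.5 ± 13.3 CPM in those of cluster 1 (SD, n = 10). Arap2 took the same order at 145 ± 30.3, 56.7 ± 13.0 and 6.75 ± 10.4 CPM. Chrna2 was 112 ± 11.5 and 98.0 ± 14.3 CPM in the first pair and 3.07 ± 6.53 CPM in cluster 1. Levels in cluster 1 rest on few cells. A library needed only 3 members of a set to enter, and 4 libraries held at least 10 members of cluster 1. Nefm helped to form the sets. Arap2 and Chrna2 did not, and both were lowest in the members of cluster 1. Outside the sets, cluster 55, with 2 members, had Nefm at 641 CPM over all its cells, against 190 CPM over those of cluster 9. Cluster 54, with 4 members, had Cxcl14 at 4115 CPM over all its cells, against 3187 CPM over those of cluster 9. Maf, a bZIP transcription factor gene, was 692 ± 144 CPM in clusters 11, 23 and 6 against 27.8 ± 21.8 CPM in 9 and 32 and 4.36 ± 6.33 CPM in cluster 1, and the crystallin gene Crybb3 was 476 ± 92.7 CPM against 3.11 ± 3.68 and 2.53 ± 7.99 CPM. Cluster 1 was set apart by Lypd6b, a membrane-anchored modulator of nicotinic receptors, at 137 ± 49.4 CPM against 7.82 ± 7.43 and 14 ± 5.41 CPM, and by the bHLH factor gene Bhlhe22 at 1585 ± 290 CPM against 428 ± 60.6 and 586 ± 80.5 CPM. Cxcl14 itself was 3948 ± 688, 2279 ± 394 and 1029 ± 242 CPM in the order given first, and Tmem114 355 ± 55.2, 231 ± 33.7 and 151 ± 28.8 CPM. Over all cells of cluster 1, members or not, Tmem114 was at 16.3 CPM, against 96.0 to 197 CPM in the other leading clusters. The Tmem114 level in members of cluster 1 was thus largely set by the gate.

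**Figure D2:**
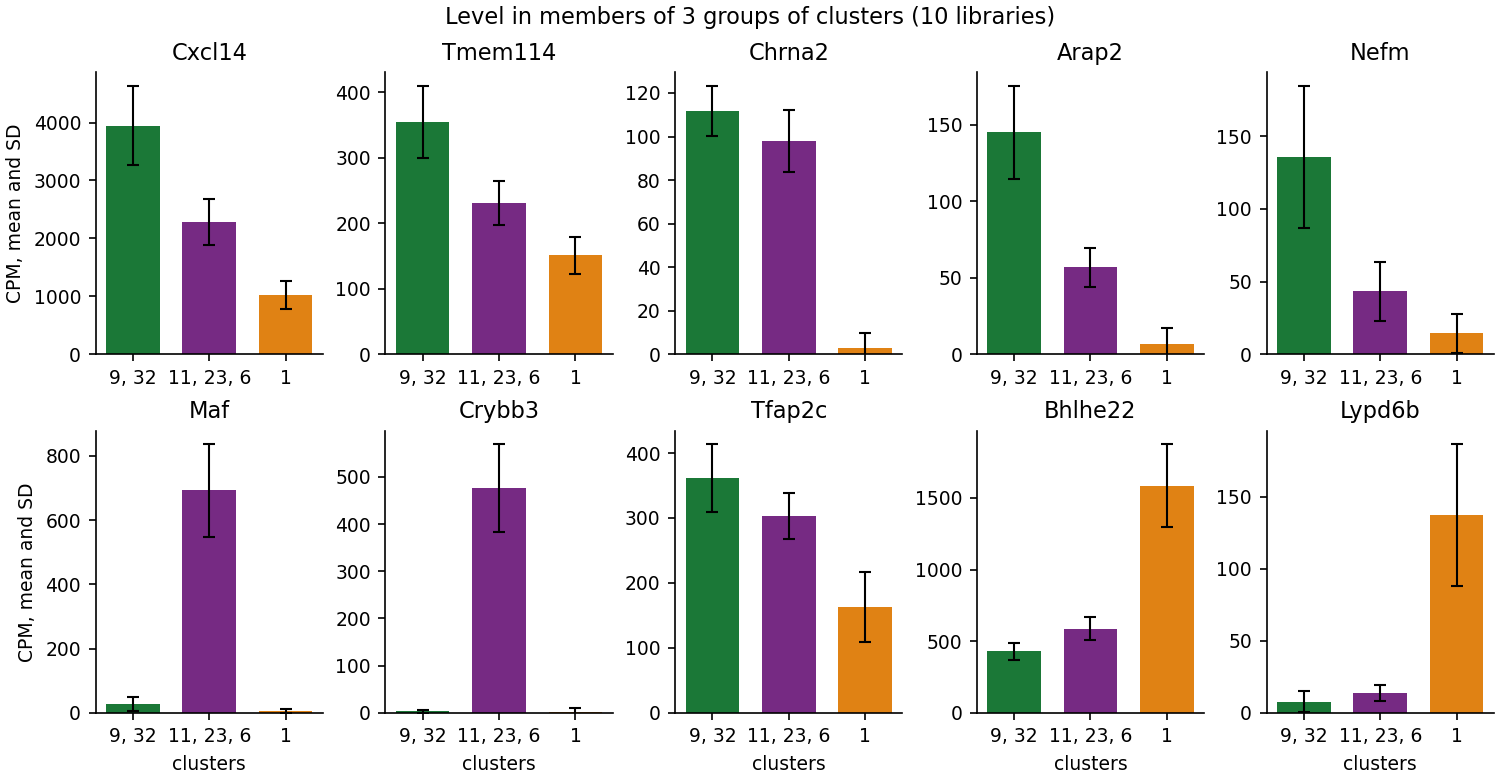
Mean CPM over 10 libraries (bars; error bars are the SD) of 10 genes in members of clusters 9 and 32, of clusters 11, 23 and 6, and of cluster 1. Of these 3 sets Maf and Crybb3 are high in the second alone, Nefm and Arap2 are highest in the first, and Chrna2 is near 0 in cluster 1. The sets were formed by the Maf and Nefm levels of the clusters.

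The split by Maf was also seen in single cells without clusters. At least 2 Maf UMIs were found in 672 members (46.2%) and none in 652 (44.9%), at median depths of 7520 and 6727.5 UMIs. A Crybb3 UMI was found in 85.1% of the former and 6.44% of the latter, a Chrna2 UMI in 46.9% and 32.4%, and a Nefm UMI in 26.2% and 29.3%. Of the 1359 Gad-gated cells with at least 2 Maf UMIs and a Crybb3 UMI, 572 were members, which is 42.1% of those cells and 39.4% of the members. These 1359 cells, chosen on Maf and Crybb3, had Maf at 722 ± 100 CPM against 364 ± 84.8 CPM in all members, and Crybb3 at 439 ± 78.2 against 240 ± 53.9 CPM. They had Kcna6 at 1201 ± 162 against 773 ± 83.6 CPM, Ngfr at 339 ± 66.4 against 195 ± 41.4 CPM and Chrna2 at 65.1 ± 9.74 against 77.0 ± 9.19 CPM. Tmem114 was lower there, at 87.7 ± 14.5 against 233 ± 30.1 CPM, a direction set by the gates, since only members had to hold a Tmem114 UMI.

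The 334 members (23%) outside the 6 leading clusters were deeper, with a median of 10361.5 UMIs, and made up 10.0% to 31.5% of the members of a library. They held genes that were low in members of the leading clusters. Cartpt, a neuropeptide precursor, was at 1474 ± 1174 CPM there against 49.3 ± 16.4, 59.5 ± 22.6 and 39.5 ± 28.5 CPM in the 3 sets in the order above. Vip, another peptide gene, was at 252 ± 361 CPM against 6.95 ± 8.08, 6.74 ± 6.65 and 3.37 ± 5.93 CPM. The transcription factor gene Tfap2b was at 796 ± 227 CPM against 65.7 ± 44.5, 56.1 ± 30.4 and 245 ± 122 CPM. They also held genes of the leading sets, with Maf at 244 ± 80.7 CPM, Crybb3 at 138 ± 47.5 CPM, Kcna6 at 483 ± 125 CPM and Ngfr at 106 ± 22.6 CPM. No doublet caller was run, and the part of droplets with more than 1 cell in these members was not tested.

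Tmem114 was also found outside cells with Cxcl14. The highest Tmem114 level of any cluster was 386 CPM in cluster 50, where Cxcl14 was at 270 CPM and ranked 34 of 85 clusters. That cluster held 126 of the 305 Gad-gated cells with Tmem114 and no Cxcl14, and 18 members. The 305 cells had Tmem114 at 301 ± 65.4 CPM (SD, n = 9 libraries with at least 10 of them) against 233 ± 30.1 CPM in members. Both sets were chosen for a Tmem114 UMI. The 305 cells had Tfap2b at 1926 ± 339 CPM, Chrna2 at 1.27 ± 2.61 CPM and Maf at 3.34 ± 4.27 CPM.

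The first tested comparison set members against Gad-gated cells without Cxcl14 over genes that had not chosen the cells. Members had more RNA of the transcription factor genes Maf and Tfap2c, of the crystallin gene Crybb3, the muscarinic receptor gene Chrm1 and the potassium channel gene Kcna6. They had less of the transcription factor genes Tfap2b, Tfap2e and Nr4a2 and of the peptide genes Vip and Cartpt. Counts were summed per library and set and tested with edgeR's quasi-likelihood test with the library as a block. Of 10043 genes tested, 4916 passed an adjusted p of 0.05 (48.9%), 2527 higher (25.2%) and 2389 lower (23.8%) in members. With a change of at least 2-fold as well, 396 were higher (3.94%) and 494 lower (4.92%). With cells thinned to 2000 UMIs, 708 of 4734 genes tested were higher and 597 lower. Among members with no Maf UMI, a set chosen after Maf had been seen, 1691 of 8969 genes were higher and 1549 lower.

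The 10 genes with the largest rise, by the rule given under processing, did not overlap between the sets. The rule asks for a large change in every library, which makes a lack of overlap likely. The share without overlap among all genes is not reported here. Maf ran from 257 to 564 CPM in members (median 340) and from 1.07 to 6.08 CPM in the comparison cells (median 2.59). Its log2 change was 6.80 ± 0.09 (SE; edgeR adjusted p = 4.32e-30), higher in 10 of 10 libraries. Crybb3, a beta-crystallin known from the lens, ran from 155 to 307 CPM against 1.90 to 6.0 CPM (log2 change 5.85 ± 0.11; adjusted p = 1.25e-26). As shown above, both were highest in members of clusters 11, 23 and 6, which were grouped by their Maf level. The Maf Crybb3 cells as a whole had more of both than members, a direction set by the gate that chose them. Chrm1 ran from 46.4 to 68.8 CPM against 1.90 to 3.36 CPM (log2 change 4.48 ± 0.11), and Slc4a4, a sodium bicarbonate cotransporter, from 32.5 to 98.2 CPM against 0.542 to 4.05 CPM (4.55 ± 0.13). Edn1, the precursor of the peptide endothelin-1, ran from 64.7 to 102 CPM against 1.35 to 6.58 CPM (4.14 ± 0.11). Unlike Maf, Edn1 was present in all 3 sets of leading clusters, at 107 ± 24.4, 79.8 ± 7.78 and 123 ± 63.2 CPM in the order given above. Tgfb1, a secreted growth factor, ran from 124 to 230 CPM against 9.17 to 21.5 CPM (3.58 ± 0.11) and was present in all 3 as well, at 94.8 ± 34.7, 257 ± 32.3 and 118 ± 58.5 CPM. Ell2, a transcription elongation factor, changed by 3.93 ± 0.12, Cmtm8, of the chemokine-like factor family, by 3.72 ± 0.13, Eva1a by 3.67 ± 0.10 and the protocadherin gene Pcdh20 by 3.67 ± 0.11. Adjusted p-values of these 10 genes from edgeR were at most 2.77e-20. Maf, Crybb3, Chrm1, Slc4a4 and Edn1 were low in the comparison cells, at no more than 6.58 CPM. They passed the filter on low counts through the members, so that filter largely fixed their direction. The same may hold in part for Ell2, Cmtm8, Eva1a and Pcdh20, whose levels in the comparison cells are not given here.

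**Figure D3:**
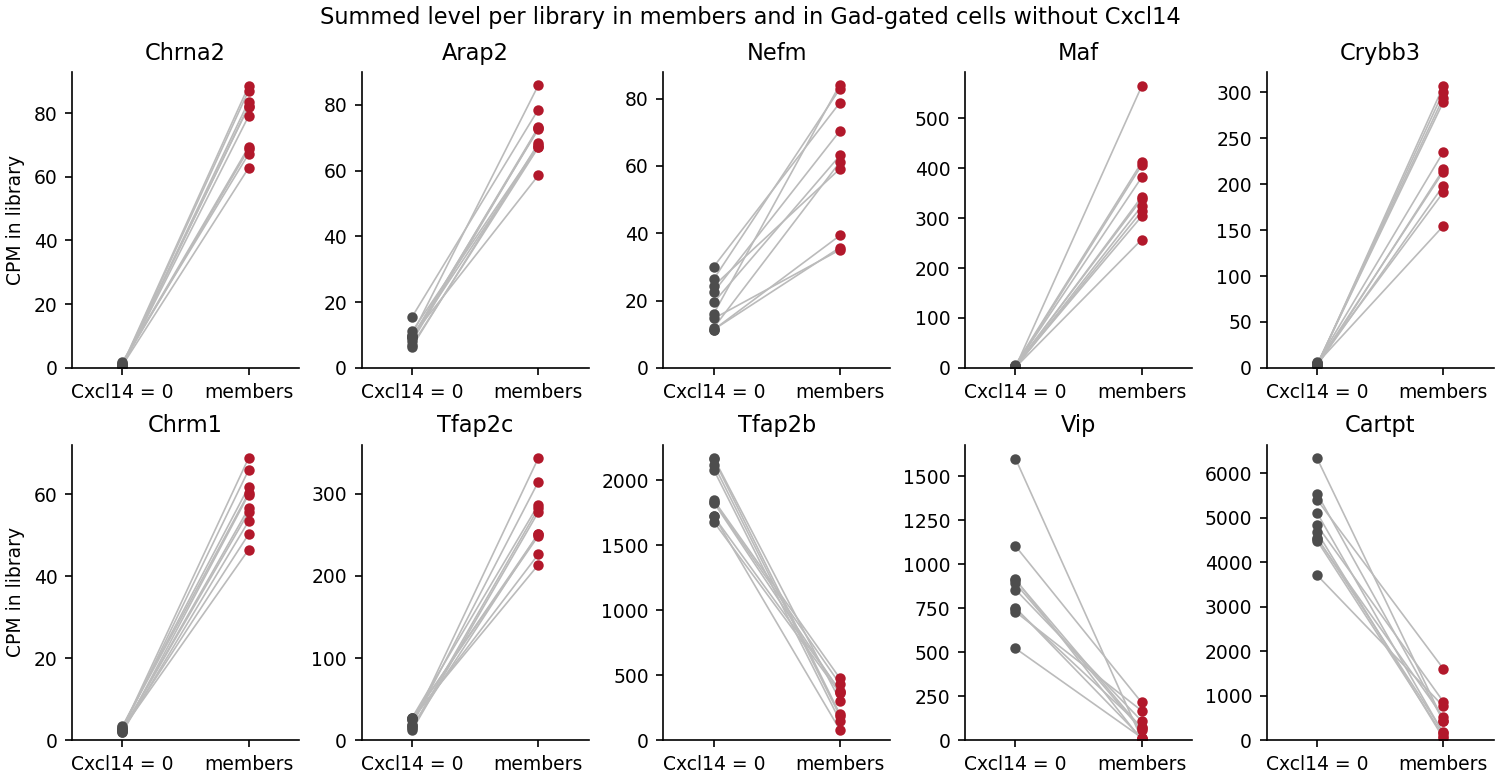
CPM of 10 genes in each of the 10 libraries, in Gad-gated cells without Cxcl14 (grey) and in members (red), with lines joining the sets of a library. Chrna2, Arap2, Nefm, Maf, Crybb3, Chrm1 and Tfap2c are higher and Tfap2b, Vip and Cartpt lower in members of every library.

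The 10 genes with the largest fall were led by neuropeptides. Vip ran from 1.66 to 214 CPM in members (median 61.1) and from 521 to 1599 CPM in the comparison cells (median 873), a log2 change of -3.55 ± 0.20 (edgeR adjusted p = 1.58e-15). Cartpt ran from 50.5 to 1608 CPM in members (median 439) and from 3709 to 6336 CPM in the comparison cells (median 4753), a log2 change of -3.42 ± 0.23 (edgeR adjusted p = 1.09e-13). As given above, both were highest in members outside the 6 leading clusters. The synaptic organizer genes Cbln4 and Cbln2 changed by -3.31 ± 0.15 and -2.88 ± 0.10, the nuclear receptor gene Nr4a2 by -3.18 ± 0.11 and the somatostatin receptor gene Sstr2 by -3.11 ± 0.12. Plcxd3 changed by -2.99 ± 0.11, the G protein subunit gene Gnb4 by -2.98 ± 0.14, the sialyltransferase gene St8sia5 by -2.93 ± 0.13 and the noncoding RNA Pantr1 by -2.91 ± 0.10. None of the 10 overlapped between the sets, which the same rule makes likely.

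Transcription factors were split. Of 57 tested from a list of 86, 20 were higher, 27 lower and 10 did not pass, with a median log2 change of -0.22 against 0.00 over all genes tested. Of all genes tested, 25.2% were higher and 23.8% lower. With cells thinned to 2000 UMIs the median of the 35 then tested was 0.22, with 14 higher and 16 lower. The AP-2 family, which is known for its role in amacrine cells, went both ways. Tfap2c ran from 214 to 344 CPM against 12.1 to 27.4 CPM (3.57 ± 0.09; edgeR adjusted p = 2.23e-23). Tfap2b ran from 78.6 to 476 CPM against 1681 to 2172 CPM (-2.63 ± 0.13; edgeR adjusted p = 3.39e-17). Tfap2a, from 71.7 to 116 CPM against 168 to 258 CPM, changed by -1.22 ± 0.04, and Tfap2e, from 0 to 9.83 CPM against 28.6 to 63.8 CPM, by -3.55 ± 0.24. As Tfap2e was low in members, its direction may in part have been fixed by the filter on low counts. Members thus had more Tfap2c and less of the other 3, with no overlap of libraries for any of the 4, where the share of all genes without overlap is not reported.

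Genes of transmitter synthesis and transport were lower in members or did not pass the test. Of 28 in the list 13 were tested by edgeR, without the gate genes. Among these 6 were lower and 7 did not pass (median -0.11), beside 25.2% higher and 23.8% lower over all genes tested. At an unadjusted p below 0.05, 0 were higher, and DESeq2 called 0 higher. The GABA transporter gene Slc6a11 ran from 98.2 to 170 CPM against 195 to 367 CPM (-1.22 ± 0.05; edgeR adjusted p = 1.34e-18). The glutamate transporter gene Slc1a1 changed by -1.12 ± 0.08. Gad1, which helped to choose the cells, was 1060 ± 145 CPM in members and 1459 ± 231 CPM in cells without Cxcl14, while Gad2 was 481 ± 24.2 and 255 ± 16.9 CPM. Of 10 neuropeptide genes tested, Grp and Tac1 were higher, 5 were lower and 3 did not pass (median -1.09). Grp, the precursor of gastrin-releasing peptide, ran from 13.9 to 53.3 CPM against 3.19 to 7.93 CPM (2.19 ± 0.17). Among members Grp was 50.7 ± 24.0 CPM in clusters 9 and 32, 46.66 ± 34.75 CPM in cluster 1 and 38.38 ± 39.64 CPM outside the leading clusters. In clusters 11, 23 and 6 it was 6.04 ± 3.82 CPM. Of 6 peptide receptor genes tested, 2 were higher and 4 lower (median -1.16). Tacr1, a receptor for tachykinins, changed by 1.39 ± 0.10, and by -0.20 (adjusted p = 0.508, edgeR) in the members with no Maf UMI.

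Receptors for acetylcholine differed in kind. Of 7 tested genes of nicotinic receptors and their modulators, with Chrna2 left out, 4 were higher and 3 lower. Over all genes tested 25.2% were higher and 23.8% lower. The median of the 7 was 0.57. That median was -0.11 over the 5 tested under the stricter gate and -0.14 against all other Gad-gated cells. The beta-3 subunit gene Chrnb3 ran from 52.1 to 109 CPM against 16.5 to 28.4 CPM (1.52 ± 0.08; edgeR adjusted p = 1.9e-16), and the beta-2 subunit gene Chrnb2 from 28.6 to 47.7 CPM against 15.7 to 24.9 CPM (0.86 ± 0.09). The alpha-6 subunit gene Chrna6 went the other way, from 14 to 25.7 CPM against 38.3 to 66.8 CPM (-1.31 ± 0.09; edgeR adjusted p = 8.04e-14). Lypd6b ran from 12.3 to 39.0 CPM against 0 to 4.87 CPM (3.29 ± 0.24), and as given above its level lay mainly in cluster 1. Lypd6b passed the filter on low counts through the members, so its direction was largely fixed by that filter. The alpha-4 subunit gene Chrna4 (0.57 ± 0.19; edgeR adjusted p = 0.0126) and the modulator genes Lynx1 (-0.22 ± 0.07) and Lypd1 (-1.36 ± 0.21) overlapped between the sets. The calls of Chrna4 and Lynx1 were lost under some alternatives. Of 11 muscarinic, monoamine, adenosine and cannabinoid receptor genes, 3 were higher and 7 lower (median -0.83). Chrm2, a muscarinic receptor coupled to inhibition, ran from 0 to 13.7 CPM against 22.9 to 44.7 CPM (-2.12 ± 0.20), the reverse of Chrm1. As Chrm2 was low in members, its direction may in part have been fixed by the filter on low counts. That of Chrm1 was largely fixed by the same filter, as given above.

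Receptors for GABA, glycine and glutamate were divided, beside 25.2% higher and 23.8% lower over all genes tested. Of 19 GABA and glycine receptor genes tested, 5 were higher, 9 lower and 5 did not pass (median -0.27). The alpha-2 subunit gene Gabra2 changed by -2.04 ± 0.09 and the beta-1 gene Gabrb1 by -2.53 ± 0.14. The delta subunit gene Gabrd, known from receptors outside synapses, ran from 54.0 to 116 CPM against 13.2 to 33.5 CPM (2.20 ± 0.09; edgeR adjusted p = 6.83e-19). Of 23 genes of glutamate receptors, 10 rose, 9 fell and 4 did not pass (median -0.04). The metabotropic receptor genes Grm7 (1.56 ± 0.07), Grm5 (-2.29 ± 0.13) and Grm2 (-2.61 ± 0.19) went in different directions.

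Channel genes were more often higher than lower in members, while 25.2% of all genes tested were higher and 23.8% lower. Of 24 genes of sodium, calcium and HCN channels tested, 15 were higher, 4 lower and 5 did not pass, with a median of 0.35. Of 27 potassium channel genes, 19 were higher, 6 lower and 2 did not pass, with a median of 0.40. Over the alternatives run these medians lay between 0.22 and 0.79 and between 0.18 and 0.59. Kcna6, a voltage-gated potassium channel subunit, ran from 623 to 943 CPM against 88.4 to 113 CPM (2.92 ± 0.04; edgeR adjusted p = 9.99e-30). Among members it was 1347 ± 130 CPM in clusters 11, 23 and 6, 267 ± 55.5 CPM in clusters 9 and 32 and 106 ± 35.5 CPM in cluster 1. The T-type calcium channel gene Cacna1i ran from 80.7 to 116 CPM against 12.8 to 20.9 CPM (2.47 ± 0.07), and the sodium channel gene Scn3a from 124 to 170 CPM against 20.3 to 43.9 CPM (2.19 ± 0.07). Kcnj3 (2.64 ± 0.10), Kcnip2 (1.88 ± 0.06) and Cacna1a (1.53 ± 0.07) rose too, while Kcnd2 (-1.90 ± 0.17) fell.

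**Figure D4:**
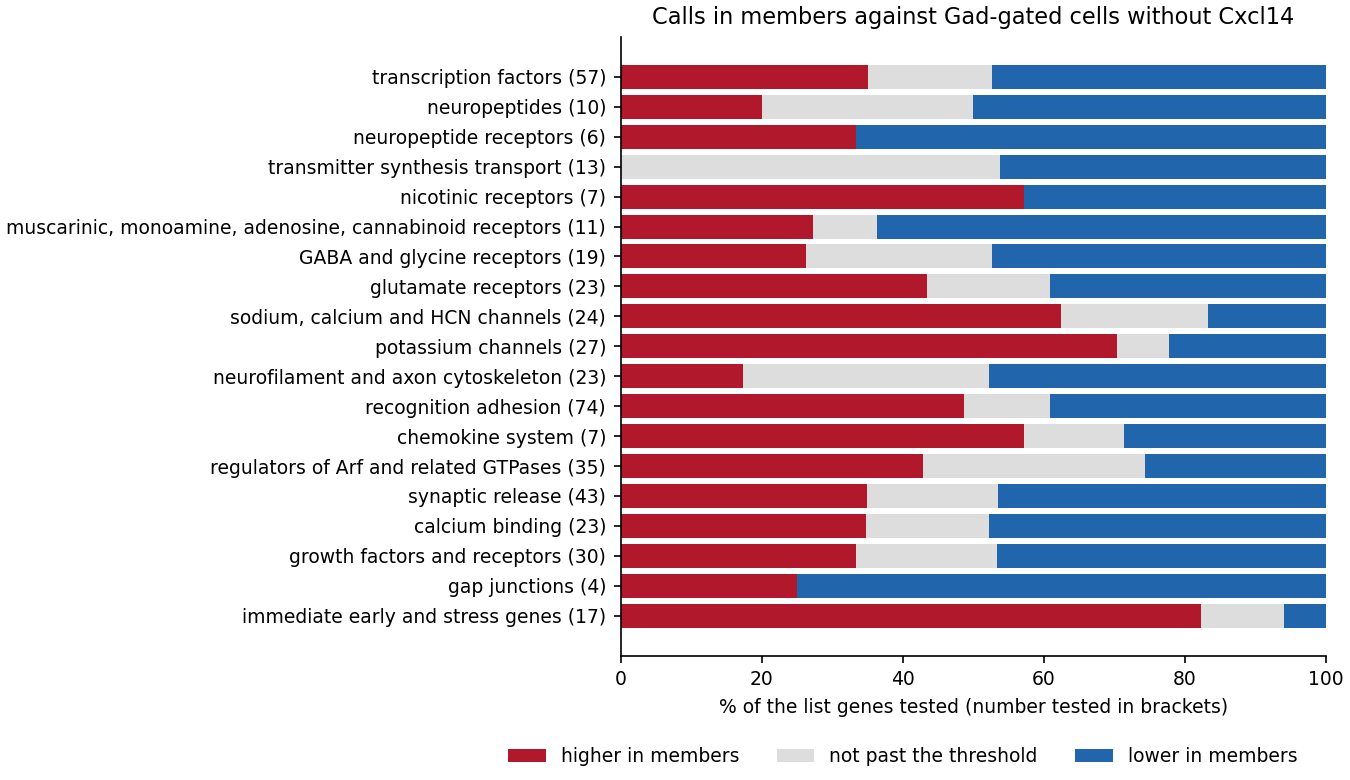
Share of the tested genes of each list (bars, in %) that were higher in members, did not pass an adjusted p of 0.05, or were lower, with the number tested in brackets. Over all genes tested 25.2% were higher and 23.8% lower; 19 of 27 potassium channel genes and 14 of 17 immediate early and stress genes were higher, and the lists were chosen with earlier results of these data known.

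Neurofilament and axon genes other than Nefm were split. Among the 23 tested, 4 were higher, 11 lower and 8 did not pass (median -0.12), beside 25.2% higher and 23.8% lower over all genes tested. The light chain gene Nefl ran from 87.7 to 166 CPM against 34.3 to 90.3 CPM, which overlapped (1.11 ± 0.08; edgeR adjusted p = 1.81e-12), whereas the heavy chain gene Nefh ran from 6.94 to 35.3 CPM against 90.2 to 118 CPM (-2.14 ± 0.12; edgeR adjusted p = 2.75e-15). The growth cone gene Gap43 changed by -1.77 ± 0.06 and the microtubule-associated gene Map1b by 0.59 ± 0.03. Of 7 chemokine system genes tested, with Cxcl14 left out, 4 were higher, 2 lower and 1 did not pass (median 0.38). Beside Cmtm8, the chemokine gene Cx3cl1 (0.45 ± 0.05) and the atypical receptor gene Ackr1 (0.38 ± 0.07) rose but overlapped between the sets. Cxcl12 was low in both, from 0 to 5.61 CPM against 5.61 to 14.8 CPM (-2.61 ± 0.24). It passed the filter on low counts through the comparison cells, so its direction was largely fixed by that filter. Of 35 regulators of Arf and related GTPases tested, with Arap2 left out, 15 were higher, 9 lower and 11 did not pass (median 0.18). Arhgap24 ran from 249 to 340 CPM against 34.3 to 59.1 CPM (2.59 ± 0.06) and Asap1 from 595 to 686 CPM against 182 to 248 CPM (1.55 ± 0.04).

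Genes of transmitter release and of growth factor signalling went in both directions, beside 25.2% higher and 23.8% lower over all genes tested. Unc13b, which primes synaptic vesicles, ran from 157 to 255 CPM against 8.28 to 19.7 CPM (3.56 ± 0.09; edgeR adjusted p = 2.64e-24), and the complexin gene Cplx2 from 872 to 1364 CPM against 128 to 297 CPM (2.50 ± 0.06; edgeR adjusted p = 8.12e-25). The synaptotagmin genes Syt10 and Syt6 changed by -3.05 ± 0.22 and -2.74 ± 0.14. Over the 43 release genes tested, 15 were higher, 20 lower and 8 did not pass (median -0.19). Over 30 growth factor genes, 10 were higher, 14 lower and 6 did not pass (median -0.18). Ngfr, the p75 neurotrophin receptor, ran from 144 to 243 CPM against 9.42 to 21.5 CPM (3.55 ± 0.11). Ngfr was 383 ± 72.9 CPM in members of clusters 11, 23 and 6 and 8.53 ± 7.85 CPM in those of clusters 9 and 32. Bmp7 (1.78 ± 0.14) rose and Igfbp2 (-2.69 ± 0.11) fell. Of 74 recognition and adhesion genes 36 were higher and 29 lower (median 0.08), of 23 calcium-binding genes 8 were higher and 11 lower, and of 4 gap junction genes 1 was higher and 3 lower.

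Immediate early and stress genes were mostly higher in members, while 25.2% of all genes tested were higher and 23.8% lower. Of 17 tested, 14 were higher, 1 lower and 2 did not pass, with a median of 0.97, which lay between 0.74 and 1.31 over the alternatives run. Fos ran from 954 to 2024 CPM against 284 to 442 CPM (2.0 ± 0.05; edgeR adjusted p = 2.95e-24), Junb from 410 to 967 CPM against 125 to 251 CPM (1.89 ± 0.06) and Egr4 from 148 to 405 CPM against 38.7 to 82.9 CPM (2.20 ± 0.09). Fosb overlapped, from 43.0 to 342 CPM against 8.55 to 62.9 CPM (2.40 ± 0.08). Its level moved with batch, from 194 to 342 CPM in members of batch 2 and from 43.0 to 52.4 CPM in those of batch 3. Among members, Fos was 2187 ± 680 CPM in clusters 11, 23 and 6, 1100 ± 300 CPM in clusters 9 and 32 and 135 ± 101 CPM in cluster 1. Such genes are known to respond to tissue dissociation, whose part here was not tested.

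The second comparison set members against other Gad-gated cells with Cxcl14. The 5628 such cells, with at least 2 Cxcl14 UMIs and no Tmem114, had a median depth of 6546 UMIs. Members had less Tac2, Calb2, Tpbg and Slc18a3, and more Pcdh20, Crybb3, Mmp9 and Tfap2c at smaller folds. Of 10004 genes tested by edgeR, 3067 passed (30.7%), 1589 higher (15.9%) and 1478 lower (14.8%) in members. At least 2-fold changes were found for 78 higher (0.78%) and 248 lower genes (2.48%). With cells thinned to 2000 UMIs, 181 of 3480 genes tested were higher and 133 lower, of which 0 and 30 by at least 2-fold, and 0 were at least 2-fold higher at an unadjusted p below 0.05. Since Tmem114 was sparse, the comparison set can hold cells of the same kind in which its RNA was missed.

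The genes highest in members against these cells did not overlap, which the rule that chose them makes likely. Pcdh20 ran from 34.7 to 94.2 CPM against 6.96 to 28.3 CPM (log2 change 1.63 ± 0.10; edgeR adjusted p = 1.4e-16). Crybb3 ran from 155 to 307 CPM against 41.2 to 113 CPM (1.51 ± 0.07), the matrix protease gene Mmp9 from 148 to 255 CPM against 57.2 to 88.8 CPM (1.4 ± 0.05) and Tfap2c from 214 to 344 CPM against 81.0 to 131 CPM (1.33 ± 0.04). Slitrk4 (1.44 ± 0.09), Slc51a (1.43 ± 0.10), Fibcd1 (1.39 ± 0.08), Igfbp4 (1.35 ± 0.07), Ell2 (1.33 ± 0.09) and Slc4a4 (1.33 ± 0.09) were the others of the 10. Of 59 transcription factor genes tested, 18 were higher, 25 lower and 16 did not pass (median -0.09). Over all genes tested here 15.9% were higher and 14.8% lower.

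Genes lowest in members included those of acetylcholine release. Tac2, a tachykinin precursor, ran from 0 to 156 CPM against 376 to 701 CPM (-3.77 ± 0.17; edgeR adjusted p = 7.56e-20), and Calb2, the calcium-binding protein calretinin, from 92.4 to 402 CPM against 1293 to 2257 CPM (-2.81 ± 0.13; edgeR adjusted p = 2.26e-19). Tpbg changed by -3.17 ± 0.15, Igfbp7 by -2.93 ± 0.14, Hpcal1 by -2.71 ± 0.14, the active zone gene Rims1 by -2.59 ± 0.11, Plcxd3 by -2.55 ± 0.11, the LIM homeobox gene Isl1 by -2.50 ± 0.12 and Elavl2 by -2.32 ± 0.11. Some markers of starburst cells, the cholinergic amacrine cells, were low in members and passed the filter on low counts through the comparison cells, so their direction was largely fixed by that filter. Slc18a3, the vesicular acetylcholine transporter, ran from 0 to 14.5 CPM against 22.1 to 87.8 CPM (-3.10 ± 0.17), Chat, which makes acetylcholine, from 0 to 4.99 CPM against 9.62 to 39.0 CPM (-3.39 ± 0.21), and Sox2, which overlapped, from 0 to 10.1 CPM against 9.13 to 41.9 CPM (-3.10 ± 0.25). Of 17 immediate early and stress genes, 16 were higher (median 0.75) and 1 did not pass, beside 15.9% higher over all genes tested.

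The third comparison set members against another Gad-gated set with a neurofilament marker. The 788 cells with at least 2 Nefh UMIs and 1 Igfbp2 UMI that were not members had a median depth of 8700.5 UMIs, and 25 members (1.72%) that met this gate too were left among the members. Members had more Pcdh20, Crybb3, Prrt4 and Edn1 and less Tshr, Ucma, Olfm3 and Grm2. Of 8150 genes tested by edgeR, 3895 passed (47.8%), 1914 higher (23.5%) and 1981 lower (24.3%), of which 466 (5.72%) and 374 (4.59%) by at least 2-fold. With cells thinned to 2000 UMIs, in 9 libraries, 303 of 1577 genes tested were higher and 269 lower.

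Prrt4 ran from 158 to 226 CPM against 2.80 to 21 CPM (log2 change 3.98 ± 0.14; edgeR adjusted p = 4.22e-17), and Gas7, a cytoskeletal regulator, from 462 to 721 CPM against 4.19 to 88.5 CPM (3.56 ± 0.16). Pcdh20 (4.37 ± 0.26), Crybb3 (4.24 ± 0.23), Edn1 (3.89 ± 0.25), Chst9 (3.89 ± 0.24), Cd302 (3.78 ± 0.19), Efemp1 (3.73 ± 0.25), Tgfb1 (3.55 ± 0.14) and Arhgap24 (3.53 ± 0.19) completed the 10 highest. Of the lowest genes, Olfm3, an olfactomedin, ran from 3.90 to 30.3 CPM against 288 to 449 CPM (-4.34 ± 0.13; edgeR adjusted p = 1.96e-18), and Grm2, a metabotropic glutamate receptor, from 0 to 7.32 CPM against 56.2 to 102 CPM (-4.28 ± 0.19). Tshr (-5.09 ± 0.25), Vil1 (-5.04 ± 0.24), Ucma (-5.02 ± 0.21), Fam196b (-4.43 ± 0.22), Gcnt2 (-4.35 ± 0.21) and Mdga1 (-4.22 ± 0.18) were lower as well. No library overlapped for any of these 18, which the rule that chose them makes likely. Grm2, Vil1, Ucma and Fam196b were low in members, at no more than 7.32, 6.19, 12.3 and 10.6 CPM. They passed the filter on low counts through the Nefh Igfbp2 cells, so their direction was largely fixed by that filter. Crybb3, at 9.45 ± 9.96 CPM, and Prrt4, at 2.80 to 21 CPM, were low in the Nefh Igfbp2 cells. That filter may in part have fixed the direction of both. Of 44 transcription factor genes tested 22 were higher, 17 lower and 5 did not pass (median 0.45), and of 16 immediate early and stress genes 13 were higher (median 1.03). Over all genes tested here 23.5% were higher and 24.3% lower. The Nefh Igfbp2 cells had Nefm at 28.1 ± 12.6 CPM against 61.0 ± 18.9 CPM in members, Chrna2 at 3.24 ± 3.41 CPM and Arap2 at 4.04 ± 4.03 CPM.

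The first comparison was also set between batches, as an addition made after the data had been seen. An interaction of set with batch, batch 3 against batch 2, was called for 269 of 11510 genes (2.34%) by edgeR's quasi-likelihood test. Of the 70 genes of the first comparison considered here, 20 were called, each with a change of larger size in batch 3. These 70 had been named for their changes, and other genes called in the interaction went otherwise. Elavl2 changed by -2.03 in batch 2 and -1.02 in batch 3, Tac2 by -1.18 in batch 2 and 0.53 in batch 3 and Calb2 by 0.23 in batch 2 and -0.26 in batch 3. On the log2 scale Maf changed by 6.39 in batch 2 and 7.74 in batch 3, Crybb3 by 5.35 in batch 2 and 6.61 in batch 3, Tfap2b by -2.13 in batch 2 and -3.32 in batch 3 and Cartpt by -2.71 in batch 2 and -4.20 in batch 3. Maf in the comparison cells ran from 3.54 to 6.08 CPM in batch 2 and from 1.07 to 1.63 CPM in batch 3, while in members it ran from 304 to 412 and from 257 to 343 CPM. Crybb3 in members ran from 155 to 235 CPM in batch 2 and from 289 to 307 CPM in batch 3. Tfap2b in members ran from 361 to 476 CPM in batch 2 and from 148 to 305 CPM in batch 3. Depth differed between these batches as given above, and its part was not tested.

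**Figure D5:**
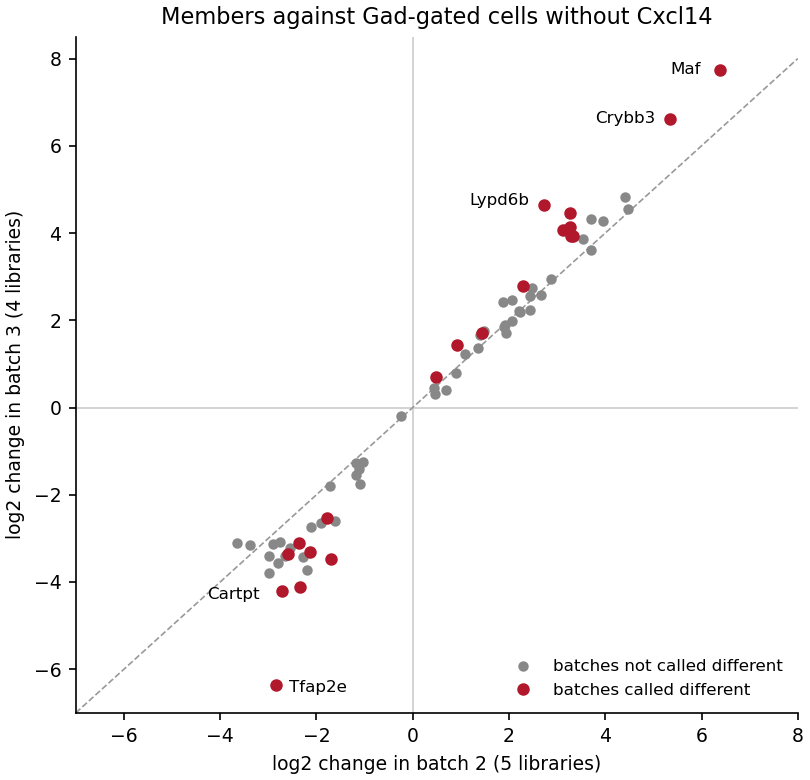
Log2 change of members against Gad-gated cells without Cxcl14 in batch 2 (x axis) and batch 3 (y axis) for 70 genes of that comparison; red points are the 20 genes whose change differed between batches by the interaction test, and the dashed line marks equal change. The red points lie farther from 0 in batch 3, as for Maf (6.39 and 7.74) and Map1b (0.47 and 0.70).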

How the data were processed

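Single-cell RNA was measured in 10 libraries. The deposited table holds raw UMI counts per gene and cell, which the authors made with Cell Ranger 2.1.0 and the mm10 genome, per the submitters' processing notes. How cells were filtered, and whether doublets had been removed, is not given in the sources used here; no doublet caller was run. The members and the gene lists were chosen with earlier results of these data known.

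Cells were gated on their UMIs, and counts were summed per library and set. Both sets of each comparison had at least 10 cells in all 10 libraries. Sums were tested with edgeR 4.0.16 in R 4.3.3 (TMM scaling, filterByExpr, quasi-likelihood test, library as a block), with Benjamini-Hochberg adjustment over all genes tested and a threshold of 0.05, leaving out gate and proposed marker genes. Standard errors are the absolute log2 change divided by the square root of F. Levels in CPM are summed UMIs scaled to 1000000. Thinning drew 2000 UMIs from each cell and left out shallower cells. Named genes were the 10 called genes with the largest rise and fall, changed the same way in every library, with at least 50 CPM in the higher set. From each list, up to 4 called genes of at least 20 CPM were eligible, and all tested nicotinic, chemokine and neurofilament genes. Of these, a smaller number was taken for the text after their values were seen, and some genes that meet the rule are not reported here. Clusters came from 3000 variable genes (2975 kept), 50 principal components, 20 neighbours and leidenalg 0.10.2 at a resolution of 3 (scikit-learn 1.9.0, scipy 1.17.1). The testing code was tested on simulated data.

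Alternatives were DESeq2 1.42.0, its size factors, no low-count filter, no block, other gates, other minimums of cells, each batch alone, thinned cells, no cells of high depth, each library left out, and resolutions of 1.5 and 5. Members without Maf, the batch interaction and leaving out libraries from the clusters were added after seeing the data.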

Additional observations from a re-analysis of the deposited data

Results flagged for a closer look

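Among 105 items tested in members, 13 had 1 library far from the other 9, judged by Dixon's test, which chance passes in about 1 in 20 groups. Library 1 was the highest for Maf at 564 CPM (next 412), Grp at 53.3 CPM (next 33.8), Tacr1 at 70.1 CPM (next 44.6) and Cxcl12 at 5.61 CPM (next 2.59). Library 2 was the highest for Cartpt at 1608 CPM (next 868). Library 3 was the highest for Slc6a11 at 170 CPM (next 136), Ucma at 12.3 CPM (next 3.47) and Fam196b at 10.6 CPM (next 5.24). Library 5 was the highest for Sstr2 at 16.6 CPM (next 9.15). Library 6 was the highest for Tpbg at 51.4 CPM (next 26.5). Library 8 was the highest for Vil1 at 6.19 CPM (next 2.46). Library 9 was the highest for Cd302 at 207 CPM (next 164). Library 8 was the lowest for Nefl at 87.7 CPM (next 130). Library 1 is the lone library of batch 1 and held 40 members, the fewest.

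For 20 of 70 genes the log2 change of members against Gad-gated cells without Cxcl14 differed between batches by edgeR's interaction test. Batch 3 minus batch 2, the difference was above 0 for Asap1 0.27, Cmtm8 1.17, Cplx2 0.49, Crybb3 1.26, Lypd6b 1.92, Maf 1.36, Map1b 0.22, Nefl 0.50, Ngfr 0.95, Tfap2c 0.64, Tgfb1 0.86 and Unc13b 0.60. It was below 0 for Cartpt -1.52, Cbln2 -0.78, Chrm2 -1.79, Gabra2 -0.76, Igfbp2 -0.75, Syt6 -1.77, Tfap2b -1.20 and Tfap2e -3.56. The genes above 0 were higher and those below 0 lower in members, so each change was larger in batch 3.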

How the results depend on the processing

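Of the results for genes under the alternatives, 1632 of the first comparison, 427 of the second and 347 of the third kept direction and side of the threshold. In the first, 8 lost the call (Chrna4, Lynx1, Cx3cl1 and Ackr1, under some settings) and 3 changed sign: Lynx1 to 0.03 with thinned cells (adjusted p = 0.958, edgeR), Chrna4 to -0.14 against all other Gad-gated cells (0.55) and Tacr1 to -0.20 with Maf members left out (0.508). A gene not tested under a setting gave no result there. With thinned cells 59 results over the 3 comparisons were kept, 2 lost the call and 1 changed sign, where 110 were kept with DESeq2's size factors. Counts of calls moved more. With no low-count filter, genes at least 2-fold higher and lower were 673 and 1105 in the first comparison, 140 and 597 in the second and 917 and 799 in the third, and 42.1% of calls in the second were higher against 51.8%. With thinned cells, which test fewer genes, calls were 708 up and 597 down (past 2-fold 160 and 178) in the first, 181 and 133 (0 and 30) in the second and 303 and 269 (103 and 81) in the third. Against all other Gad-gated cells 239 genes were at least 2-fold higher, and with members without Maf 1549 were lower. In the second comparison, calls were 962 higher and 976 lower with no library block, and 872 and 944 in batch 3 alone. The difference in share between batches was 1.74 points under the stricter gate (exact permutation p = 0.0159), and at a clustering resolution of 1.5 the 3 leading clusters held 72.4% of members. The cause of these shifts was not tested beyond the number of genes tested. Without each library in turn, calls were 2263 to 2510 up and 2188 to 2476 down (past 2-fold 388 to 418 and 474 to 536) in the first comparison, 1406 to 1588 up and 1327 to 1500 down (past 2-fold 67 to 84 and 239 to 263) in the second and 1800 to 1959 up and 1859 to 1965 down (past 2-fold 459 to 487 and 365 to 388) in the third, the difference in share ran from 1.06 to 1.90 points, and the 3 leading clusters held 54.4 to 59.9% of members. The sets were paired within libraries in all tests but those with no library block. Thinning to 2000 UMIs left a Tmem114 UMI in 42.7% of members.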
